A study of Mus musculus with 4 samples.

Results

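Translation initiation factors are the proteins that bring a ribosome to the start codon of an mRNA. Members were chosen by name and not by any measured value: all probe sets with 1 platform gene symbol that begins with Eif1 to Eif6, leaving out Eif2s3x, Eif2s3y and Eif2ak2. The choice gave 125 probe sets of 44 genes, out of 45037 probe sets and 18193 genes in all. A probe set is a group of short probes on the array that together give 1 intensity for a transcript. Other genes of these complexes were not analysed here.

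RNA was measured on 4 Affymetrix mouse genome arrays, in cells that carry both CD4 and CD8 and are called double-positive, or DP, thymocytes. The normal group (2 arrays) held DP cells from the thymus of mice with genotype WT, and the tumour group (2 arrays) DP cells from a peripheral thymoma that over-expressed Notch1-IC, with genotype T-ALL. Notch1-IC is the intracellular, active part of the Notch1 receptor, and T-ALL stands for T-cell acute lymphoblastic leukaemia. The genetic background was given as WT C57/BLACK6 for all samples, while age, treatment and the promoter that drives Notch1-IC were not given in the sources used here. One label, the sample type, called all 4 samples tumour cells, against the titles, sources and genotypes of the normal ones. Tissue site and transformation cannot be told apart, since normal cells came from thymus and tumour cells from the periphery. Separate animals are not stated for the replicates, so the p-values rest on the spread within these 4 samples, and that spread may be technical. Every SE and p-value of a gene below is limma's moderated one. It draws more on probe sets of similar intensity (median of 7.27 prior degrees of freedom) than on a probe set's own arrays (2).

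As background, initiation starts when the small ribosomal subunit binds eIF1, eIF1A and eIF3 and receives the initiator tRNA from eIF2 and GTP. eIF2B recharges eIF2 with GTP, and kinases that sense stress phosphorylate eIF2 and thereby block eIF2B. The mRNA is brought in by eIF4F, in which eIF4E binds the cap, eIF4A unwinds the leader and eIF4G holds them together, while the 4E-BP proteins compete with eIF4G for eIF4E. eIF5 and eIF5B complete start codon choice and subunit joining. Growing and transformed cells are known to depend on this machinery, and Eif4e is a known target of the transcription factor Myc.

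The labelled cell type was checked first. All 9 measured DP markers were above background on both normal arrays and on both tumour arrays, but 7 of them, Cd4 and Cd8a included, were lower in tumour and 1, Ptcra, was higher, and their summed intensity was 57569 to 57931 in normal and 30809 to 30949 in tumour arrays. Of 9 macrophage and monocyte markers, 6 were higher and 0 lower in tumour (summed intensity 103 to 146 in normal, 1561 to 1628 in tumour). Of 7 neutrophil markers, 5 were higher and 0 lower, with sums of 171 to 240 and 1948 to 1973. The B cell markers gave 0 higher and 1 lower of 4 (sums of 319 to 345 and 88.8 to 98.5), the erythroid markers 1 and 0 of 2 (4.31 to 9.92 and 77.0 to 105.6) and the thymic stroma markers 1 and 2 of 6 (365 to 420 and 284 to 308). The B cell sums were mostly Cd79b (321 and 294 in normal, 52.05 and 63.47 in tumour arrays). Cd79a and Pax5 were above background on no array, and Ms4a1 on 1 tumour array only. Intensity ratios of 3' to 5' control probe sets were also higher in tumour, at 2.49 ± 0.050 against 1.24 ± 0.056 for beta-actin and 1.85 ± 0.0058 against 0.905 ± 0.011 for Gapdh (mean ± SD, n = 2). The part of these other cells and of RNA quality in the differences below was not tested. In such bulk samples, fewer cells of a type and less RNA per cell cannot be told apart.

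Among the initiation factors, the few genes with differences of at least 2-fold came from several groups, and Eif4b, Eif4e3 and Eif4ebp1 among them are all eIF4 genes by name. Eif1a, Eif4ebp1, Eif3b, Eif5b and Eif4b rose by at least 2-fold with an adjusted p below 0.05 (limma), and Eif4e3 fell so. These were 5 and 1 of the 44 genes. By the same 2 criteria, 9.82% of all well expressed genes rose and 7.45% fell. Eif2ak4 also stood 2.02-fold higher but did not pass the test. Each gene was read from its most intense probe set, and differences are tumour minus normal on the log2 scale. With limma's moderated test over all probe sets (adjusted p below 0.05, called below), 16 of 44 genes rose, 6 fell and 22 did not pass. Over all genes, 16.3% were called higher and 11.7% lower. The choice of probe set bears on these counts: for 6 genes (Eif1a, Eif1ad, Eif3e, Eif3i, Eif4e2 and Eif4ebp1) another probe set was the most intense in the normal arrays alone. Read from those, an alternative added after the data were seen, 13 genes rose and 7 fell, Eif1a rose by 0.78, Eif3i (0.14) and Eif4ebp1 (0.29) did not pass, and Eif4e2 fell by 0.64. The shares of all genes called in that reading are not given here. Most members are well expressed, here a mean of 7 or more on the log2 scale, so the 42 of this kind were set beside all 6364 such genes. There, 38.1% of members and 30.6% of all genes were called higher, 14.3% and 26.9% were called lower, and 52.4% and 57.5% were called either way. Normal and tumour arrays did not overlap for 31 of the 42 (73.8%) and for 83.1% of all. The share called in either direction thus lay near that of other well expressed genes, while the share called lower was smaller, with no test of the difference. Over all 44 members the median log2 difference was 0.20, against 0.09 over all genes and 0.03 over the well expressed ones. The median size of difference, regardless of sign, was 0.30 over all 44 members, against 0.46 over the 6364 well expressed genes.

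**Figure D1:**
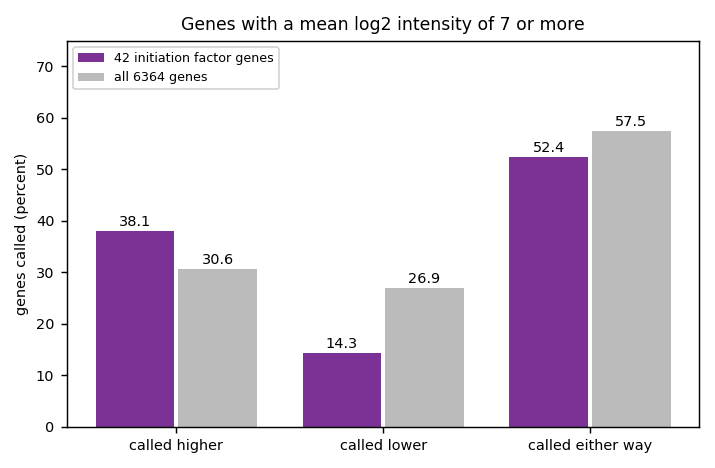
Percent of genes called higher, lower or either way in tumour (limma, adjusted p below 0.05) among 42 initiation factor genes (purple) and all 6364 genes (grey) whose mean log2 intensity was 7 or more. The members' share called lower is 14.3% against 26.9%, with no test of the difference; the bars depend on the scaling, as given in the text.

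2 settings bear on every direction below. The deposited arrays share nearly the same distribution, and the BioB, BioC and BioD hybridization controls, which the standard protocol adds in equal amounts, lay 0.60 higher (log2) in the tumour arrays, with single controls between 0.28 and 0.91. Scaling to them (spike scaling) lowers every difference by 0.60 and the median of all genes from 0.09 to -0.51. It gave 5 genes called higher and 24 lower in place of 16 and 6, and the 5 were Eif1a, Eif3b, Eif4b, Eif4ebp1 and Eif5b. The shares of all genes called with spike scaling are not given here, so these counts are no result about the members. Directions below are therefore relative to the bulk of genes on these arrays. With a single variance prior in limma in place of one that follows intensity, 0 of all 45037 probe sets passed, members included. The smallest adjusted p of a member was 0.0696. An unadjusted p below 0.05 gave 23 higher and 12 lower of the 125 member probe sets, and 11337 of all 45037.

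**Figure D2:**
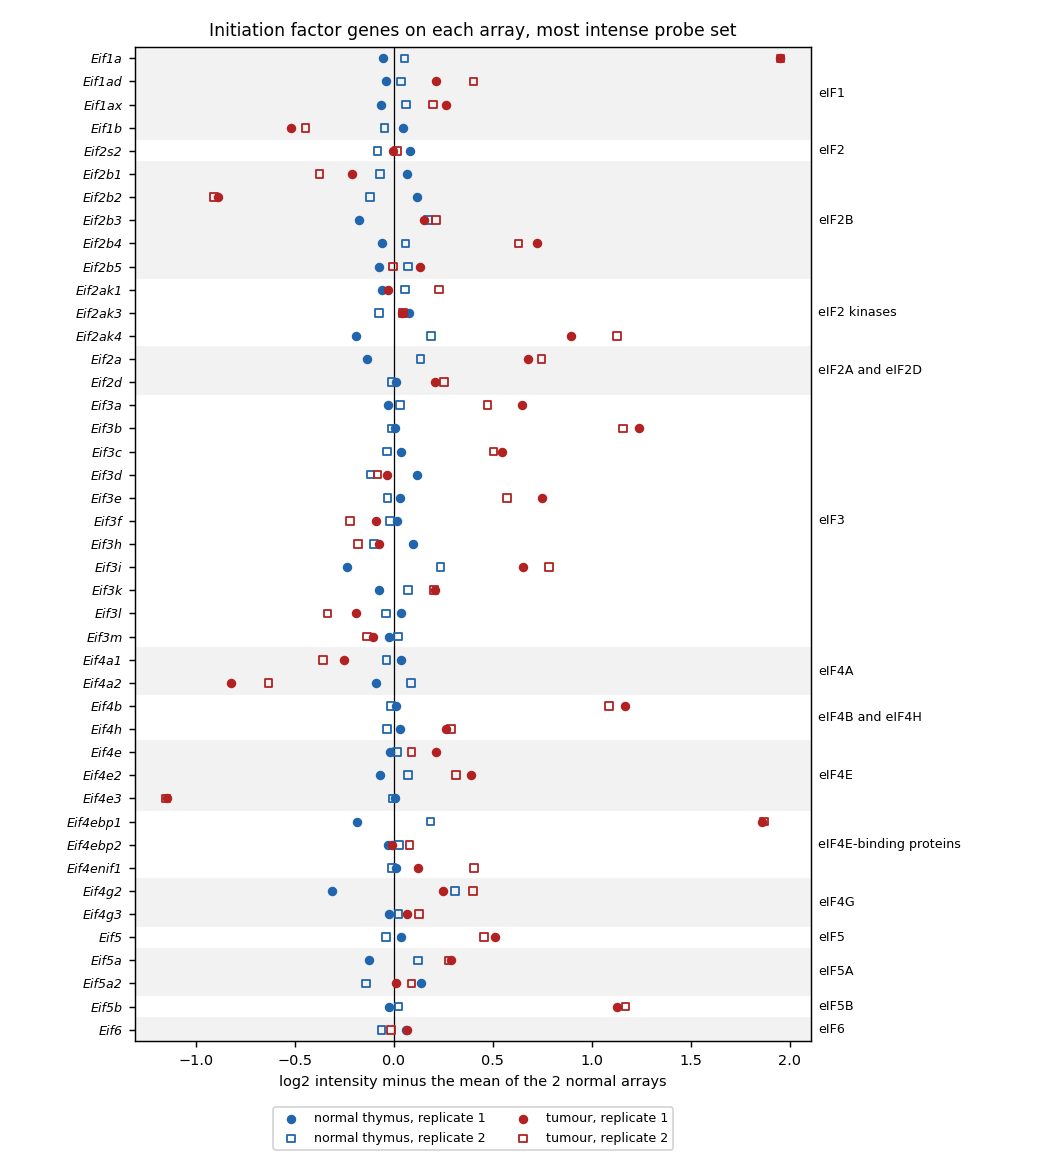
Log2 intensity on each of the 4 arrays, minus the mean of the normal arrays, for the most intense probe set of the 43 genes above background on all arrays, ordered by complex. Blue marks are normal, red marks tumour, circles replicate 1 and squares replicate 2. Eif1a, Eif4ebp1, Eif3b, Eif5b, Eif4b and Eif2ak4, which was not called, lie furthest to the right and Eif4e3 furthest to the left. With spike scaling the tumour marks of each gene would lie 0.60 further left on average.

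The recognition site of Myc, the E-box CACGTG, was searched in the 250 bases upstream of annotated starts, because Eif4e is a known Myc target. The sequence reads the same on both strands. Promoter sequences from RefSeq (GRCm38.p6) were held for 35 of the 44 genes, and 8 of the 35 (22.9%) had an E-box at 1 start or more. The share was 10.9% of the 5281 well expressed genes with a promoter and 6.86% of all 27025 genes. A gene with more annotated starts has more chances of a match, and starts per gene were not compared. The sites of the called genes and the 2 sites of Eif4e are shown with 12 bases on either side, 5′ to 3′ on the gene's strand, with the E-box in capitals.
Eif4e, chr3:138527028-138527057, plus strand: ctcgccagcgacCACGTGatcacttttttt
Eif4e, chr3:138527192-138527221, plus strand: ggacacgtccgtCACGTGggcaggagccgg
Eif5a, chr11:69921443-69921472, minus strand: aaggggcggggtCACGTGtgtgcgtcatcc
Eif5a, chr11:69920791-69920820, minus strand: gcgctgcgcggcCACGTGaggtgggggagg
Eif4h, chr5:134639488-134639517, minus strand: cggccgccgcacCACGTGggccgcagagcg
Eif4a1, chr11:69672595-69672624, minus strand: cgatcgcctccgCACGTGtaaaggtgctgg
Eif1b, chr9:120492570-120492599, plus strand: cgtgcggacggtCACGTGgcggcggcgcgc
The sites of Eif4e start 228 and 64 bases before the start they were found at. Of the 8 genes with an E-box, Eif4h and Eif5a were called higher (lower with spike scaling), Eif4a1 and Eif1b lower, and Eif4e, Eif3f, Eif3k and Eif5a2 were not called on their most intense probe sets. These were 2 of 12 members called higher, 2 of 5 called lower and 4 of 18 not called that had a promoter. A match is a description of the sequence only.

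The eIF1 group scans for the start codon. It held 4 genes, of which Eif1a and Eif1ax rose, Eif1b fell and Eif1ad did not pass. Eif1a, which encodes a form of eIF1A, gave intensities of 197 and 213 in normal and 795 and 795 in tumour arrays. The groups lay far apart, a rise of 1.95 ± 0.11 (SE, n = 2 per group; limma adjusted p = 2.14e-06) or 3.87-fold. Its other probe set rose too, by 0.78 ± 0.13 (adjusted p = 0.00192). The first is of the _s_at class, whose probes can bind transcripts of more than 1 gene, and Eif1ax is a close paralog. Eif1ax, the X-linked form, gave 2254 and 2461 in normal and 2828 and 2700 in tumour arrays. This small rise of 0.23 (adjusted p = 0.0485) was -0.37 with spike scaling. Without normal replicate 1 and without tumour replicates 1 and 2 its adjusted p was 0.229, 0.288 and 0.159, and with an offset of 16 it was 0.0553. Its dimmest probe set rose by 1.65 ± 0.31 (adjusted p = 0.00365) and the remaining one stood at -0.09 (adjusted p = 0.702). Eif1b, a paralog of eIF1, gave 3380 and 3171 in normal and 2282 and 2403 in tumour arrays, a fall of 0.48 ± 0.07 (adjusted p = 0.00066) with no overlap. Eif1ad, which carries an eIF1A-like domain, stood at 0.31 and -0.35 on its 2 probe sets, with adjusted p = 0.0864 and 0.125.

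Eif2s2, the beta subunit of eIF2, was the only eIF2 subunit among the members, and its 6 probe sets did not tell the same story. The most intense gave 3210 and 2865 in normal and 3027 and 3071 in tumour arrays, with overlapping groups and a difference of 0.01 ± 0.07 (limma adjusted p = 0.961). The next gave 1936 and 1379 in normal and 4241 and 4180 in tumour arrays, a rise of 1.37 ± 0.13 (adjusted p = 5.17e-05). In all, 4 of the 6 rose, by 0.34 to 2.07, and the dimmest fell by 1.06 ± 0.30 (adjusted p = 0.0300). With spike scaling the most intense fell by 0.59 (adjusted p = 0.000119), and the smallest rise became -0.26. Averaged over its probe sets, Eif2s2 rose by 0.73 (adjusted p = 0.000945).

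eIF2B, the exchange factor of eIF2, moved unevenly among its 5 subunits: Eif2b4 rose, Eif2b2 fell and 3 did not pass. Eif2b2, the beta subunit, gave 1206 and 1023 in normal and 599 and 591 in tumour arrays. The tumour values were lower by 1.87-fold, a fall of 0.90 ± 0.10 (limma adjusted p = 0.000173). A further probe set of Eif2b2 fell by 1.37 ± 0.18 (adjusted p = 0.000409), and the dimmest stood at 0.10 (adjusted p = 0.75). Eif2b4, the delta subunit, with 1 probe set, gave 652 and 709 in normal and 1124 and 1053 in tumour arrays, a rise of 0.68 ± 0.09 (adjusted p = 0.00054), or 0.08 (adjusted p = 0.616) with spike scaling. Eif2b1 (-0.29, adjusted p = 0.153), Eif2b3 (0.18, adjusted p = 0.569) and Eif2b5 (0.06, adjusted p = 0.771), the catalytic subunit, did not pass. They stood at -0.89, -0.42 and -0.54 with spike scaling (adjusted p = 0.000425, 0.144 and 0.00601).

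None of the 3 eIF2 kinases and none of their 10 probe sets passed the test without spike scaling. Eif2ak3 (PERK), the kinase of the endoplasmic reticulum stress response, gave 740 and 667 in normal and 722 and 726 in tumour arrays. The groups overlapped, with a difference of 0.04 ± 0.10 (limma adjusted p = 0.821), or -0.56 (adjusted p = 0.0014) with spike scaling. Eif2ak1 (HRI), which senses lack of heme, stood at 0.10 ± 0.17 (adjusted p = 0.755). Eif2ak4 (GCN2), which senses uncharged tRNA, was dim at 18.1 and 23.5 in normal and 38.3 and 45.1 in tumour arrays. Its groups did not overlap, but the difference of 1.01 ± 0.39 did not pass (adjusted p = 0.099). At 2 arrays a group such a dim probe set has a wide error.

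Eif2a and Eif2d encode proteins that can deliver tRNA to the ribosome without eIF2. Eif2a gave 386 and 466 in normal and 679 and 713 in tumour arrays, a rise of 0.71 ± 0.12 (limma adjusted p = 0.00168) with no overlap, and 0.11 (adjusted p = 0.577) with spike scaling. The next probe set of Eif2a rose by 0.91 ± 0.19, while the remaining one, at or below background on all arrays, turned the mean over its probe sets to -0.01. Eif2d stood at 0.23 on its most intense probe set (adjusted p = 0.131), and at -0.37 (adjusted p = 0.0171) there with spike scaling. Of its 6 probe sets 1 rose, by 0.80 ± 0.20 (adjusted p = 0.0161).

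eIF3, the largest complex and the scaffold of the scanning ribosome, held 11 measured genes, of which 5 rose, 1 fell and 5 did not pass. The 5 that rose were Eif3a, Eif3b, Eif3c, Eif3e and Eif3i. Eif3b, a core subunit with 1 probe set, gave 762 and 752 in normal and 1788 and 1692 in tumour arrays. Replicates lay close to each other and the groups far apart, a rise of 1.20 ± 0.08 (limma adjusted p = 6.46e-06) or 2.30-fold. Eif3e gave 6343 and 6081 in normal and 10444 and 9228 in tumour arrays, a rise of 0.66 ± 0.07 (adjusted p = 6.28e-05). All 3 probe sets of Eif3e above background rose, by 0.28 to 0.96, although with spike scaling they stood at -0.32, 0.06 and 0.36. All 3 are of the _x_at class, in which some probes can bind other genes, or the _a_at class, which covers several transcripts of a gene. Eif3i, a WD repeat subunit, gave 2881 and 4003 in normal and 5344 and 5852 in tumour arrays, with a wide gap between the normal arrays. It rose by 0.72 ± 0.13 (adjusted p = 0.00244), but not without tumour replicate 2 (adjusted p = 0.0707) and not with spike scaling (0.12, adjusted p = 0.625). Its nearly as intense other probe set stood at 0.14 (adjusted p = 0.194).

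Eif3a, the largest eIF3 subunit, gave 2206 and 2301 in normal and 3530 and 3131 in tumour arrays. It rose by 0.56 ± 0.08 (limma adjusted p = 0.000495) with no overlap, but stood at -0.04 with spike scaling. 2 more of its 4 probe sets rose, by 0.71 and 1.51, and the other stood at -0.18 (adjusted p = 0.419). Eif3c, a core subunit, gave 3326 and 3168 in normal and 4750 and 4606 in tumour arrays on its most intense probe set, a rise of 0.53 ± 0.06 (adjusted p = 0.000173), and -0.07 with spike scaling. Its 4 probe sets disagreed: 3 rose, by up to 1.07, and 1 fell by 0.44 ± 0.08 (adjusted p = 0.00208). That probe set gave 1864 and 1960 in normal and 1396 and 1430 in tumour arrays. With the _s_at, _x_at and _a_at classes left out, it is the most intense of Eif3c, and the direction of the gene turns.

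Eif3l, which gave 1928 and 1832 in normal and 1645 and 1490 in tumour arrays, fell by 0.26 ± 0.08 (limma adjusted p = 0.0435). This call ended when any of the 4 arrays was left out (adjusted p = 0.206 and 0.0911 without normal replicates 1 and 2, 0.0858 and 0.288 without tumour replicates 1 and 2). Eif3d, Eif3f, Eif3h, Eif3k and Eif3m lay between -0.15 and 0.21 with adjusted p between 0.0698 and 0.736. All of them were called lower with spike scaling, between -0.76 and -0.39 (adjusted p between 7.15e-06 and 0.00362). Eif3k alone passed without normal replicate 2 (adjusted p = 0.0396).

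**Figure D3:**
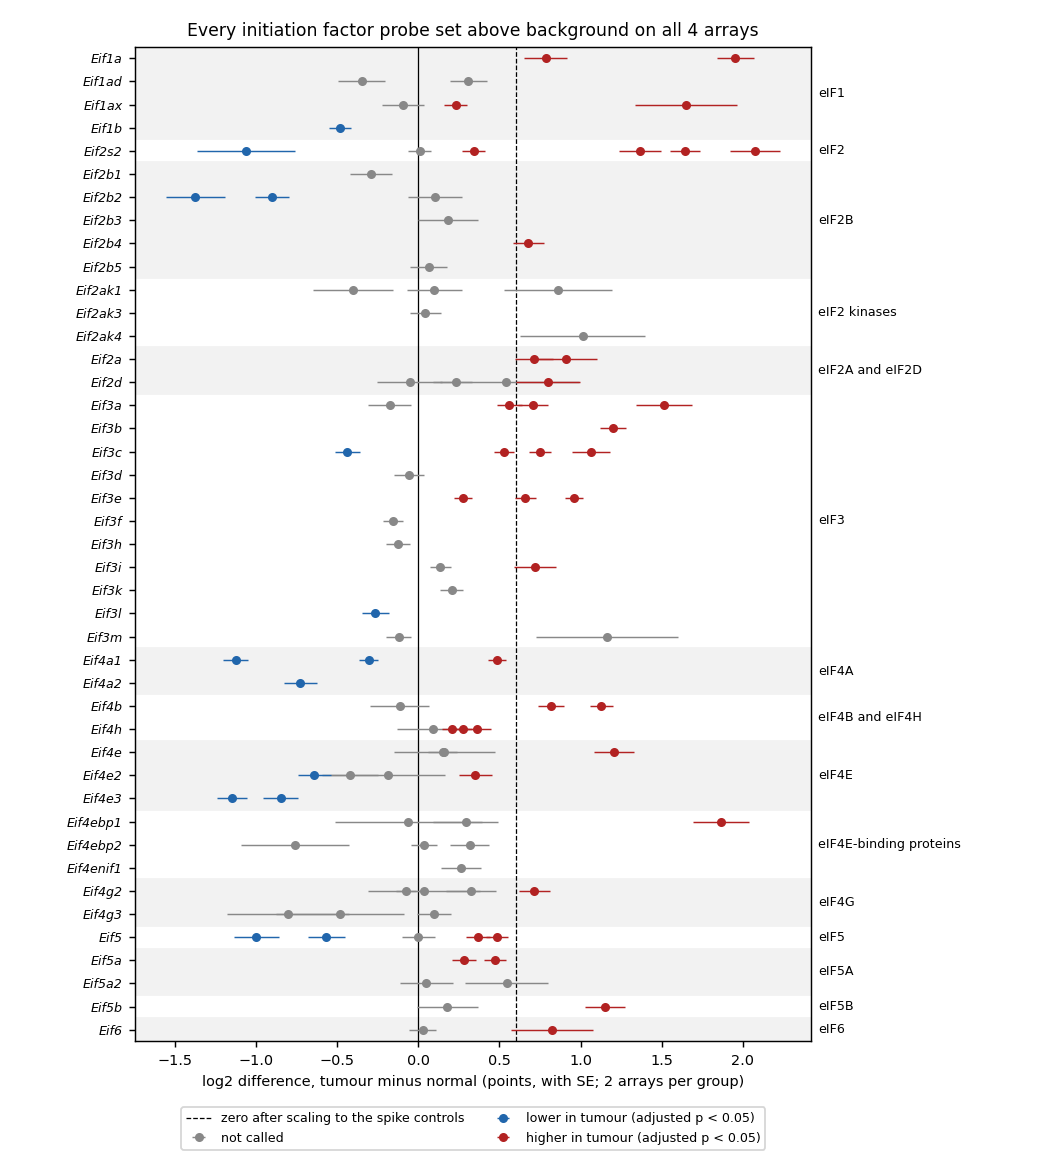
Log2 difference, tumour minus normal, with SE (2 arrays per group), for the 100 member probe sets above background on all 4 arrays, 1 row per gene. Red points were called higher, blue lower and grey neither, and the dashed line marks 0.60, where zero would lie with spike scaling. Eif2s2, Eif3c, Eif4a1, Eif4e2 and Eif5 have red and blue points in the same row.

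eIF4A is the helicase of the cap complex, and both of its forms measured above background fell on their most intense probe sets. Eif4a2 gave 1317 and 1488 in normal and 792 and 903 in tumour arrays. The tumour arrays were both lower, a fall of 0.73 ± 0.10 (limma adjusted p = 0.000564) or 1.66-fold. Eif4a1, the main form in dividing cells, gave 7094 and 6753 in normal and 5815 and 5403 in tumour arrays, a fall of 0.30 ± 0.06 (adjusted p = 0.00425). Without tumour replicate 2 the adjusted p was 0.101. Its other probe sets moved in opposite directions: 1 fell from 4551 and 4699 to 2270 and 1985, by 1.12 ± 0.08 (adjusted p = 6.2e-06), and the other rose from 3827 and 3905 to 5448 and 5386, by 0.49 ± 0.06 (adjusted p = 0.000168), or -0.11 with spike scaling. Replicates agreed closely on each, so the sign for Eif4a1 depends on the probe set read. Eif4a3, the form found in the exon junction complex, lay at or below background on all 4 arrays on its 1 member probe set, and no fold is given.

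eIF4B and eIF4H assist the eIF4A helicase, and both rose. Eif4b gave 1507 and 1481 in normal and 3357 and 3175 in tumour arrays. The groups were well apart, a rise of 1.13 ± 0.07 (limma adjusted p = 3.68e-06) or 2.19-fold. A second probe set of Eif4b rose by 0.82 ± 0.08 (adjusted p = 5.45e-05) and the dimmest stood at -0.11 (adjusted p = 0.744). Eif4h gave 5097 and 4867 in normal and 5980 and 6094 in tumour arrays, a rise of 0.28 ± 0.06 (adjusted p = 0.00498) that was -0.32 with spike scaling. The adjusted p of Eif4h was 0.0719 and 0.0958 without tumour replicates 1 and 2. 3 of its 6 probe sets rose, all of the _s_at or _x_at classes and all below 0 with spike scaling. Without these classes Eif4h stood at 0.09 (adjusted p = 0.848), and over the mean of all 6 it fell by 0.66 (adjusted p = 0.0047). A dim one was at least 2.89-fold lower (adjusted p = 0.011), with 36.8 and 54.0 in normal arrays and both tumour arrays at or below background.

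Of the 3 cap-binding proteins, Eif4e3 fell on both of its probe sets, Eif4e did not pass on its most intense one, and Eif4e2 had calls in both directions. Eif4e3, an atypical cap-binding protein, gave 1071 and 1064 in normal and 482 and 481 in tumour arrays. The replicates nearly coincided, and the fall was 1.15 ± 0.09 (limma adjusted p = 1.58e-05) or 2.22-fold. Its other probe set fell by 0.85 ± 0.11 (adjusted p = 0.000355), so both agree. Eif4e, the cap-binding subunit itself, gave 920 and 943 in normal and 1079 and 991 in tumour arrays, a difference of 0.15 ± 0.09 that did not pass (adjusted p = 0.296). This difference was -0.45 (adjusted p = 0.00336) with spike scaling. A dimmer probe set of Eif4e gave 216 and 208 in normal and 520 and 461 in tumour arrays, and rose by 1.20 ± 0.12 (adjusted p = 8.24e-05). Eif4e2 (4EHP), which binds the cap without eIF4G and is known to repress translation, rose by 0.35 ± 0.10 (adjusted p = 0.0337) on its most intense probe set, or -0.25 with spike scaling. On the next it fell by 0.64 ± 0.10 (adjusted p = 0.0012). The first of these calls ended without any single array (adjusted p = 0.182 and 0.054 without normal replicates 1 and 2, 0.193 and 0.112 without tumour replicates 1 and 2).

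Among the proteins that bind eIF4E, Eif4ebp1 rose and the others did not pass. Eif4ebp1 encodes 4E-BP1, which blocks cap-dependent translation until mTOR phosphorylates it. It gave 78.8 and 102 in normal and 326 and 328 in tumour arrays, a rise of 1.87 ± 0.17 (limma adjusted p = 4.08e-05) or 3.64-fold. That probe set is of the _x_at class. The other 2, of the plain _at class, gave 112 and 126 in normal with 169 and 125 in tumour arrays (0.29 ± 0.20, adjusted p = 0.377), and 20.3 and 26.2 with 20.6 and 23.7 (-0.06, adjusted p = 0.95). The groups overlapped on both, so the rise of Eif4ebp1 rests on 1 of 3 probe sets. Eif4ebp2, encoding 4E-BP2, gave 1398 and 1451 in normal and 1418 and 1505 in tumour arrays (0.04 ± 0.08, adjusted p = 0.815). Its difference was -0.56 (adjusted p = 0.000611) with spike scaling. The mean over its 5 probe sets, some at background, gave -0.82 (adjusted p = 0.0313). Eif4enif1 (4E-T), which carries eIF4E into the nucleus, stood at 0.27 ± 0.12 (adjusted p = 0.176).

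The 2 eIF4G genes among the members did not pass on their most intense probe sets, and Eif4g1 was not a member. Eif4g2 (DAP5), which lacks the eIF4E-binding part, gave 5373 and 8258 in normal and 7920 and 8787 in tumour arrays, a difference of 0.32 ± 0.16 (limma adjusted p = 0.191). The normal arrays differed more than the groups did, and without normal replicate 2 the difference was 0.63 (adjusted p = 0.00213). 1 of its 5 probe sets rose, by 0.72 ± 0.10 (adjusted p = 0.000439). Eif4g3, a form of eIF4G, stood at 0.10 ± 0.10 (adjusted p = 0.594), with no called probe set among 4. Its most intense one stood at -0.50 (adjusted p = 0.0052) with spike scaling.

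The late factors were read in 5 genes. Eif5b, the GTPase that joins the ribosomal subunits, gave 175 and 181 in normal and 390.1 and 401 in tumour arrays. Both tumour arrays were higher, a rise of 1.15 ± 0.13 (limma adjusted p = 0.000122) or 2.22-fold. The next probe set of Eif5b stood at 0.18 (adjusted p = 0.593), and the mean over its probe sets did not pass (0.80, adjusted p = 0.0787). Eif5, which triggers GTP hydrolysis by eIF2, gave 2194 and 2080 in normal and 3051 and 2929 in tumour arrays. It rose by 0.48 ± 0.07 (adjusted p = 0.00063), or -0.12 with spike scaling. Of its 5 probe sets, 2 rose (0.48 and 0.37), 1 stood at 0.00 and the 2 dimmest fell, by 0.57 and 1.00. The dimmest gave 297 and 283 in normal and 142 and 149 in tumour arrays, with no overlap.

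Eif5a, which carries the hypusine residue and aids the ribosome on difficult peptide bonds, gave 7436 and 8830 in normal and 9889 and 9815 in tumour arrays. It rose by 0.28 ± 0.07 (limma adjusted p = 0.0212) and its other probe set by 0.47 ± 0.07 (adjusted p = 0.000547), while with spike scaling they stood at -0.32 and -0.13. The first call ended without normal replicate 1 (adjusted p = 0.0841), tumour replicate 1 (0.178) or tumour replicate 2 (0.167). Its paralog Eif5a2 gave 181 and 149 in normal and 165 and 174 in tumour arrays (0.05 ± 0.17, adjusted p = 0.883), with overlapping groups. Eif5a2 stood at -0.55 (adjusted p = 0.0288) with spike scaling. Eif6, which keeps the ribosomal subunits apart, gave 1297 and 1190 in normal and 1301 and 1231 in tumour arrays (0.03 ± 0.09, adjusted p = 0.88). Eif6 stood at -0.57 (adjusted p = 0.000427) with spike scaling. Its dim second probe set rose by 0.82 ± 0.25 (adjusted p = 0.0439).

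Over all 125 member probe sets, 39 rose, 15 fell and 71 did not pass, against 11.3% called higher and 11.5% called lower of all probe sets. Of the 125, 100 lay above background on all 4 arrays, 15 on some and 10 on none. Among the 28 genes with several probe sets above background on all arrays, 5 (17.9%) had calls in opposite directions, against 8.03% of 4373 such genes on the array. These were Eif2s2, Eif3c, Eif4a1, Eif4e2 and Eif5, which hold 3 to 6 such probe sets each, and genes with more probe sets have more chances to differ. The differences within a gene spanned a median of 1.02 (log2) among the 28 and 0.76 among all 4373. The widest span was 3.14, for Eif2s2. Of the 28, 4 had all such probe sets higher (Eif1a, Eif2a, Eif3e and Eif5a), 1 all lower (Eif4e3), 11 some higher, 1 some lower (Eif2b2), and 6 none called. With spike scaling, some of these probe sets of Eif3e and all of Eif5a turned negative. How far probe set position and the higher 3' to 5' ratio of the tumour arrays bear on these splits was not tested.

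Other genes of translation were taken from 7 lists chosen by function. Of 44 measured genes, 12 rose, 8 fell and 24 did not pass, with a median log2 difference of 0.13, and 2 rose and 25 fell with spike scaling. Without spike scaling the backgrounds were 16.3% and 11.7% of all genes, and 30.6% and 26.9% of the well expressed ones. No background is given for the counts with spike scaling. In the list of mTOR and cap control, 1 of 12 rose and 4 fell. Larp1, which binds and represses mRNAs of the translation machinery, gave 324 and 339 in normal and 1637 and 1640 in tumour arrays. It rose by 2.30 ± 0.09 (limma adjusted p = 3.21e-07) or 4.94-fold, the largest rise of these 7 lists. Rps6kb2, a ribosomal protein S6 kinase, was dim and fell by 1.06 ± 0.32 (adjusted p = 0.0418), a call that ended without any single array (adjusted p = 0.199 and 0.213 without normal replicates 1 and 2, 0.0881 and 0.0604 without tumour replicates 1 and 2).

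Of 5 poly(A)-binding genes, 2 rose and 1 fell. Pabpc4, a cytoplasmic poly(A)-binding protein, gave 392 and 448 in normal and 1237 and 1205 in tumour arrays, a rise of 1.54 ± 0.10 (limma adjusted p = 5.06e-06). Paip2, an inhibitor of the poly(A)-binding protein, gave 5416 and 5416 in normal and 3345 and 3428 in tumour arrays, a fall of 0.68 ± 0.06 (adjusted p = 2.29e-05). In the list around eIF2 phosphorylation, 1 of 6 rose and 1 fell. Gcn1, the activator of the kinase GCN2, rose by 0.86 ± 0.17 (adjusted p = 0.00443), but not without tumour replicate 1 (0.0538) and not with spike scaling (0.26, adjusted p = 0.291), and the mean over its probe sets turned to -0.51 (adjusted p = 0.436). Ddit3 (CHOP), a transcription factor of the stress response, fell by 0.82 ± 0.26 (adjusted p = 0.0463), but not without normal replicates 1 and 2 (0.22 and 0.227) or tumour replicate 2 (0.206).

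**Figure D4:**
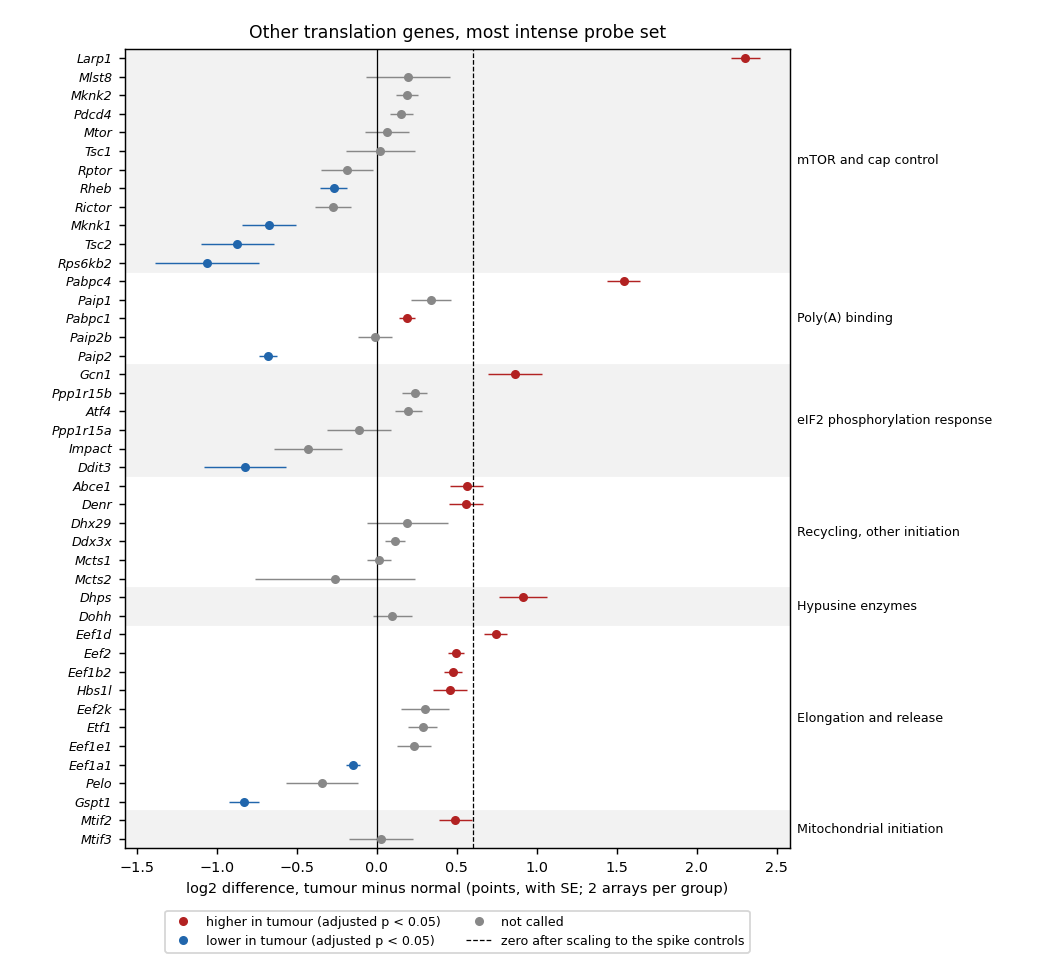
Log2 difference, tumour minus normal, with SE (2 arrays per group), for the genes of 7 other translation lists above background on at least 1 array, most intense probe set. Colours are as in the plot of member probe sets, and the dashed line marks zero after spike scaling (0.60). Larp1 and Pabpc4 lie furthest right; the genes between 0 and the dashed line change sign with spike scaling.

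The remaining lists held few calls. Of 6 genes of recycling and other initiation factors, 2 rose: Abce1, which splits ribosomes, by 0.56 ± 0.10 (limma adjusted p = 0.00271), and Denr, a partner in reinitiation, by 0.56 ± 0.11 (adjusted p = 0.00377), both at -0.04 with spike scaling. Without tumour replicate 1 neither passed (adjusted p = 0.0552 and 0.0689), nor did Denr without normal replicate 2 (0.0514). Averaged over probe sets, Abce1 stood at 0.34 (adjusted p = 0.147) and Denr at 0.44 (adjusted p = 0.311), and without the _s_at, _x_at and _a_at classes Abce1 stood at 0.19 (adjusted p = 0.413). Of the 2 enzymes that make hypusine on eIF5A, Dhps rose by 0.91 ± 0.15 (adjusted p = 0.00174) on an _a_at probe set and stood at -0.29 without such probe sets and on the probe set most intense in normal arrays. With spike scaling it stood at 0.31 (adjusted p = 0.196). Of 11 elongation and release genes, 4 rose and 2 fell. Eef1d, a subunit of the elongation factor exchange complex, rose by 0.74 ± 0.07 (adjusted p = 5.44e-05), and Gspt1, the release factor eRF3, fell by 0.83 ± 0.09 (adjusted p = 0.000145). Averaged over probe sets, they stood at 0.10 and -0.04, and with spike scaling Eef1d stood at 0.14 (adjusted p = 0.152). Mtif2, the mitochondrial initiation factor, rose by 0.49 ± 0.10 (adjusted p = 0.00673), or -0.11 with spike scaling, and not without tumour replicate 1 (0.0738).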

How the data were processed

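Deposited values are linear intensities, between 0.08 and 19270, with each probe set summarised per array. Per the submitters' processing notes the tool was RMA; its version is not given in the sources used here. RMA rarely gives linear values under 1, so the summary method is not settled, and folds of dim probe sets depend on it. The nearly equal distributions would hide any shift common to all genes, and whether there was one was not tested. Of 45101 probe sets, 64 are controls; of the rest, 34945 had 1 platform gene symbol. Log2 was taken with no offset or filter, and all 4 arrays were fitted with limma 3.58.1 in R 4.3.3 (eBayes with trend and robust). Benjamini-Hochberg adjustment was over 45037 probe sets at 0.05. The fit was also run on simulated data whose spread followed intensity, which cannot check the choice of prior. The members and lists were chosen with earlier results of these data known. Background was an array's highest value among 27 bacterial control probe sets (12.3 to 17.8); a group with no array above it gives a bound, not a fold. Spike scaling used 14 control probe sets. The rule for named genes gave full statistics per complex for up to 4 called genes with the largest difference (or the 2 most intense), genes with opposite calls, every Eif4ebp and Eif5a gene, and up to 2 called genes per pathway list. Alternatives were other scalings, an offset, a filter, other priors, a stricter threshold, other ways to read a gene, a replicate block and leaving out each array. Precision is limited by the number of arrays.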

Additional observations from a re-analysis of the deposited data

How the results depend on the processing

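Of the 22 called genes, 7 (Eif1a, Eif1b, Eif2b2, Eif3b, Eif4a2, Eif4b and Eif4e3) kept their call under every alternative that could be run on them other than the single variance priors; Eif1a and Eif2b2 have no probe set outside the _s_at, _x_at and _a_at classes. With 2 same-numbered pairs, the numbers were not taken to pair the arrays. Same-numbered deviations correlated at 0.25 over 10772 well expressed probe sets. The replicate block gave 44 probe sets higher and 20 lower and 18 genes higher and 8 lower, with 17 and 9 pathway genes. Eif1ad, Eif3f, Eif3h and Eif3k gained a call. Shares of all genes called are not given for the block or the alternatives below, except 1 prior for all probe sets. Their counts are thus no result about the members or the pathway genes. With spike scaling, 13 probe sets were higher and 54 lower, and 5 genes higher and 24 lower. The median of the members was then -0.41 and that of all genes -0.51. Of the pathway genes, 2 were higher and 25 lower. With 1 prior for all probe sets limma called 0 of all 45037, so 0 higher and 0 lower of the members and pathway genes. At an unadjusted p below 0.05 it gave 9 member genes higher and 3 lower, 5 and 4 pathway genes, and 11337 of all probe sets. With 1 prior for all genes, fitted over genes and added after seeing the data, 4 genes were higher and 1 lower (Eif1a, Eif3b, Eif4ebp1 and Eif5b; Eif4e3), and 2 pathway genes higher and 0 lower, with 5 lower at an unadjusted p below 0.05. At a threshold of 0.01, 2 pathway genes were lower, and with values averaged over a gene's probe sets 7 were higher. Without _s_at, _x_at and _a_at probe sets, 16 probe sets, 7 genes and 6 pathway genes were higher, and the median was 0.064. Read from the probe set most intense in the normal arrays, also added after seeing the data, 13 genes were higher and 7 lower with a median of 0.12, and Eif4e2 (-0.64) and Dhps (-0.29) turned. Leaving out 1 array gave 29 to 36 probe sets higher and 12 to 13 lower, 11 to 17 genes higher and 4 to 5 lower, a median of 0.13 to 0.23, and 6 to 11 pathway genes higher and 2 to 4 lower, the 6 without tumour replicate 1. With spike scaling the differences of 22 member genes, called or not, turned from positive to negative. Of these genes, 5 were called in neither setting (Eif1ad, Eif2ak1, Eif2b3, Eif4enif1 and Eif4g2). Among genes called in either setting, members and the named pathway genes, signs turned for Eif5a (-0.32), Eif4h (-0.32), Eif3c (-0.074), Eif2s2 (-0.59), Eif3k (-0.39), Eif3a (-0.040), Eif1ax (-0.37), Eif5 (-0.12), Eif4ebp2 (-0.56), Eif6 (-0.57), Eif4e (-0.45), Eif2ak3 (-0.56), Eif4e2 (-0.25), Eif2d (-0.37), Eif4g3 (-0.50), Eif2b5 (-0.54), Eif5a2 (-0.55), Denr (-0.041), Abce1 (-0.040) and Mtif2 (-0.11), by the construction of that scaling. With the mean of probe sets they turned for Eif2a (-0.010), Eif3l (0.77), Eif4e2 (-0.28), Eif4ebp2 (-0.82), Eif4h (-0.66), Eif5 (-0.14) and Gcn1 (-0.51), and without _s_at, _x_at and _a_at probe sets for Eif3c (-0.44), Eif1ax (-0.092), Eif4e2 (-0.42) and Dhps (-0.29); the cause was not tested.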
